A study of Mus musculus with 12 samples.

Results

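The 10 genes listed here are known from white adipocytes, the fat-storing cells of white adipose tissue. All 10 genes were followed across 12 primary mammary tumours of mice. They were chosen by name, with earlier results of these data known. All 10 were found among the 56860 genes of the deposited count table and passed the filter on low counts, which left 30660 genes for testing. They are Adipoq, Lep, Retn and Cfd, which encode secreted proteins, Plin1, Cidec and Lipe, whose products act at the lipid droplet, Fabp4 and Cd36, which handle fatty acids, and the transcription factor gene Pparg. Tumours were taken at 4.5 months from mice with the MMTV-PyMT transgene, in which a mammary tumour virus promoter drives the middle T oncogene of polyomavirus. Each of 3 strains gave 4 tumours. The WT strain was MMTV-Cre; MMTV-PyMT by the design text, although the strain label of those samples gives MMTV-PyMT alone. The C3_KO strain carried MMTV-Cre, C3Tdt and MMTV-PyMT, which the study calls a conditional knockout of complement component C3, and the S1pr1_KO strain carried MMTV-Cre, S1pr1fl/fl and MMTV-PyMT. The oncogene is thus shared by all groups, and Cre by all groups if the design text holds for WT. The MMTV promoter is active mainly in mammary epithelium, so that other cells of a tumour, fat cells included, can keep the targeted gene. Whether the 4 tumours of a strain came from separate mice is not stated, so p-values measure the spread between these samples, which may be technical.

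The mouse mammary gland lies in a pad of white fat. A white adipocyte stores triglyceride in a large droplet coated by perilipin-1 (Plin1) and enlarged by Cidec, takes up fatty acids through Cd36, carries them on Fabp4, and releases them by lipolysis, in which hormone-sensitive lipase (Lipe) cleaves diglyceride. PPAR-gamma (Pparg) is the nuclear receptor that drives fat cell formation and switches on many of these genes. Adiponectin (Adipoq), leptin (Lep), in mice resistin (Retn), and complement factor D, also called adipsin (Cfd), are hormones or enzymes that fat cells secrete. Factor D activates the alternative complement pathway by cleaving factor B once that is bound to a C3 product. Several of the genes are not confined to fat: Cd36 and Fabp4 are also known from capillary endothelium and macrophages, and Cd36 from milk-secreting epithelium.

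Promoters are shown for 4 members because their levels across the tumours fell into different patterns, described below. Adipoq and Plin1 varied over a wide range and together, Lep partly apart from them, and Lipe over a narrow range. Of the 10 genes, 9 had an entry in a RefSeq promoter table of build GRCm38.p6, with 13 start sites in all, each 300 bases long from 250 bases before the start. The build named in the submitters' notes is the later GRCm39, so these positions belong to the table alone. Capitals mark matches, on either strand, to 6 short motifs: the half-site of nuclear receptors, AGGTCA, the C/EBP-like motif TTGCNNAA, the CCAAT box, the TATA box in the form TATAAA, the so-called GC box GGGCGG, and the E-box in the form CACGTG. The Adipoq promoter lies on the plus strand at chr16:23146286-23146585, that of Plin1 on the minus strand at chr7:79732727-79733026, that of Lep on the plus strand at chr6:29059971-29060270, and the upstream one of 2 listed for Lipe on the minus strand at chr7:25395938-25396237.
Adipoq: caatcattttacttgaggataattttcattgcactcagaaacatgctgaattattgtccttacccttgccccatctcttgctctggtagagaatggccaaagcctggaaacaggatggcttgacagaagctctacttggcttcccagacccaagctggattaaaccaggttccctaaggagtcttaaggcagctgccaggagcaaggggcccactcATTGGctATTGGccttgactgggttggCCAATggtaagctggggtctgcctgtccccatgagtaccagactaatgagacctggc
Plin1: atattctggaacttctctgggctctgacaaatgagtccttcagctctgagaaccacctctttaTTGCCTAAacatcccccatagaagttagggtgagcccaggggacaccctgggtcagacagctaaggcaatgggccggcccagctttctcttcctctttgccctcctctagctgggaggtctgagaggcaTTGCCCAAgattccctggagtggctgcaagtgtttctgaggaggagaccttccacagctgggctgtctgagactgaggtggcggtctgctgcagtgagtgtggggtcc
Lep: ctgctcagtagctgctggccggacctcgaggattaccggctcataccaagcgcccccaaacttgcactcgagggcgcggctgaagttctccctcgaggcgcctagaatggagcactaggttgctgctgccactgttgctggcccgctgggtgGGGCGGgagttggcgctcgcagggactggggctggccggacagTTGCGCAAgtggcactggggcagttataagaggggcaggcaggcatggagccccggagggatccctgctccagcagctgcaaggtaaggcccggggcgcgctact
Lipe: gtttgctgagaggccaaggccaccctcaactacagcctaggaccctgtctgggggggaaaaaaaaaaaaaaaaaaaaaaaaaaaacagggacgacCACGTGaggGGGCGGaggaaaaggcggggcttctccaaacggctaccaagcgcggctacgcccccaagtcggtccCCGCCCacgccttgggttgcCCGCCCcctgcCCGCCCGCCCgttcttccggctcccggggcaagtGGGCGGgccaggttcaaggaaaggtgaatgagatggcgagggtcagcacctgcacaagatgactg
Adipoq held 3 CCAAT matches, beginning at positions -34, -27 and -7 relative to the start site. Plin1 held 2 C/EBP-like matches, at -187 and -58, and Lep held 1, TTGCGCAA, at -55, beside 1 GC box at -98. The Lipe promoter shown held 6 GC boxes, 2 of them overlapping, and 1 E-box, and none of the other motifs. The downstream promoter of Lipe, the upstream one of Cidec, and those of Retn and Cfd held no match to any of the 6 motifs. Among all 32851 promoters of the table, 37.4% held CCAAT, 10.8% the C/EBP-like motif, 35.7% a GC box, 7.15% the E-box, 16.3% the half-site and 13.6% TATAAA. Of the 13 member promoters, the C/EBP-like motif was in 4 (Cidec, Lep, Plin1 and Pparg), CCAAT in 4, GC boxes in 5, the half-site in 3 (2 of Pparg and that of Cd36), and TATAAA and the E-box in 1 each. G and C made up 61.0% of the Lipe promoter shown, 66.0% of that of Lep, 55.7% of that of Plin1 and 50% of that of Adipoq, with a median of 52.7% over the table. These matches describe the letters of the windows and no binding was measured.

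Libraries held 230.4 to 484.0 M counts, with M for 1e6. The targeted genes did not fully separate the strains: C3 stood at 41.6 to 75.1 CPM in C3_KO and 43.3 to 182 CPM in WT, and S1pr1 at 2.59 to 7.43 CPM in S1pr1_KO and 2.88 to 8.02 CPM in WT, where CPM is counts per 1e6 counts of a library after TMM scaling (trimmed mean of M values). WT replicates 1 to 3 lay above every C3_KO tumour for C3, and WT replicate 4 did not. Fitted log2 ratios to WT were -0.76 ± 0.49 for C3 in C3_KO and -0.17 ± 0.43 for S1pr1 in S1pr1_KO (SE, edgeR adjusted p = 0.765 and 0.874). Counts of whole tumours do not show which cells a transcript came from. Some libraries stood apart. C3_KO replicate 3 held 95520 CPM of 8 milk protein transcripts against 1288 to 5951 CPM in the other 11 libraries. S1pr1_KO replicates 1 and 4 held 151600 and 9500 CPM of 8 salivary gland transcripts against at most 262 CPM in the others. S1pr1_KO replicate 3 had low levels of most adipocyte genes, unlike replicates 1 and 2 of its strain. Its Lipe level, 32.1 CPM, was 6th of the 12 libraries, and its Pparg level, 1.27 CPM, was 8th.

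Adiponectin transcripts differed between tumours of 1 strain by more than the strains' means differed. Adipoq stood at 0.303, 11.4, 1.06 and 0.529 CPM in WT replicates 1 to 4, at 15.7, 13.3, 1.30 and 3.93 CPM in C3_KO, and at 52.7, 50, 1.03 and 5.29 CPM in S1pr1_KO. WT replicate 2 lay far above the other WT tumours, C3_KO replicates 1 and 2 above replicates 3 and 4, and S1pr1_KO replicates 1 and 2 above all other libraries, while S1pr1_KO replicate 3 lay within the WT range, so all groups overlapped. The range was 37.6-fold within WT, 12.1-fold within C3_KO and 51.2-fold within S1pr1_KO. Means were 3.32 ± 5.39 CPM in WT, 8.57 ± 7.03 CPM in C3_KO and 27.3 ± 27.9 CPM in S1pr1_KO (SD, n = 4). The lowest value, in WT replicate 1, rested on 86 counts. In bulk tumours, fewer fat cells, less transcript per fat cell and transcripts from other cells cannot be told apart. This holds for every gene below.

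Adipsin and resistin followed nearly the same order of tumours. Cfd stood at 2.76, 103, 13.9 and 4.42 CPM in WT replicates 1 to 4, at 98, 153, 9.05 and 26.9 CPM in C3_KO, and at 394, 363, 10.5 and 29.8 CPM in S1pr1_KO. Retn stood at 0.081, 5.52, 0.676 and 0.272 CPM in WT, at 4.59, 5.12, 0.361 and 1.04 CPM in C3_KO, and at 20.5, 20.2, 0.658 and 1.53 CPM in S1pr1_KO. For both genes the highest libraries were S1pr1_KO replicates 1 and 2, the lowest was WT replicate 1, and the groups overlapped. Retn had the widest range of all 10 genes, 253-fold over the 12 tumours, down to 23 counts. Cfd had the highest level per gene length, with a median of 36.9 and a maximum of 513 FPKM (fragments per kilobase per 1e6, as deposited).

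Leptin transcripts kept less closely to this order. Lep stood at 0.476, 3.65, 0.309 and 1.60 CPM in WT replicates 1 to 4, at 6.75, 0.662, 0.253 and 1.59 CPM in C3_KO, and at 7.73, 9.94, 0.632 and 1.62 CPM in S1pr1_KO. C3_KO replicate 2, which was 4th of the 12 libraries for Adipoq, was 8th for Lep, while WT replicate 4, 11th for Adipoq, was 6th for Lep. The ratio of Lep to Adipoq CPM was 0.0497 in C3_KO replicate 2 and 3.03 in WT replicate 4, with a median of 0.313, a 60.9-fold range. Lep was the lowest of the members per gene length, with a median of 0.509 FPKM.

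**Figure D1:**
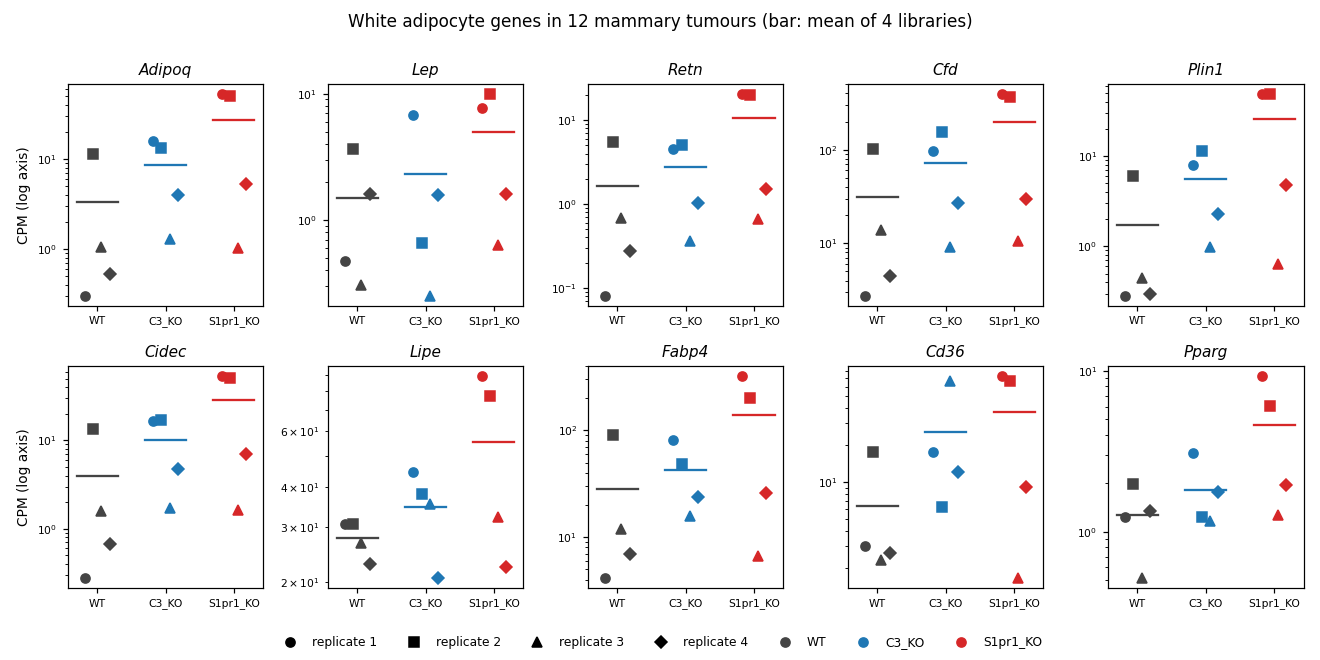
CPM (log axes, a separate scale in each panel) of the 10 adipocyte genes in each tumour by strain, with marker shapes for replicates and a bar at the mean of 4 libraries. S1pr1_KO replicates 1 and 2 are the 2 highest libraries in 9 panels, from 52.7 and 50 CPM of Adipoq, whereas Cd36 has C3_KO replicate 3 at 66.9 CPM between them.

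The droplet protein genes Plin1 and Cidec followed Adipoq, and the lipase gene Lipe varied far less. Plin1 stood at 0.285, 5.93, 0.441 and 0.299 CPM in WT replicates 1 to 4, at 8.01, 11.2, 0.972 and 2.30 CPM in C3_KO, and at 48.1, 48.4, 0.638 and 4.77 CPM in S1pr1_KO. Cidec, which fuses small droplets into large ones, stood at 0.278, 13.3, 1.57 and 0.667 CPM in WT, at 16.8, 16.9, 1.71 and 4.79 CPM in C3_KO, and at 53.4, 51.6, 1.61 and 6.94 CPM in S1pr1_KO. In each strain the same libraries were high as for Adipoq, and the groups overlapped through WT replicate 2 and S1pr1_KO replicate 3. Lipe stood at 30.5, 30.5, 26.7 and 22.9 CPM in WT, at 44.5, 38.0, 35.3 and 20.7 CPM in C3_KO, and at 89.4, 77.3, 32.1 and 22.3 CPM in S1pr1_KO. Its range over all tumours was 4.31-fold against 169-fold for Plin1 and 192-fold for Cidec, and its lowest count was 5990. WT replicates 1 and 2 had the same Lipe level, with Adipoq at 0.303 and 11.4 CPM. The Lipe to Adipoq ratio reached 101 in WT replicate 1, and which cells gave the Lipe transcripts was not tested. An antisense gene, 4732471J01Rik, overlaps Lipe on the opposite strand and stood at 6.16 to 26.0 CPM. The handling of strand is not given in the sources used here, so reads of this pair cannot be told apart.

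Of the fatty acid carriers, Fabp4 followed Adipoq and Cd36 had an exception. Fabp4 stood at 4.16, 89.7, 11.8 and 6.95 CPM in WT replicates 1 to 4, at 81.2, 47.9, 15.7 and 24.0 CPM in C3_KO, and at 322, 202, 6.70 and 26.1 CPM in S1pr1_KO. Cd36 stood at 2.99, 17.7, 2.29 and 2.65 CPM in WT, at 17.7, 6.26, 66.9 and 12.1 CPM in C3_KO, and at 73.0, 66.2, 1.65 and 9.17 CPM in S1pr1_KO. C3_KO replicate 3 was 2nd of all libraries for Cd36 and 8th for Adipoq, with a Cd36 to Adipoq ratio of 51.5 against 0.470 to 9.86 in the other libraries. The same library held the milk transcripts given above, among them Csn2, which encodes beta-casein, at 24200 CPM. Its blood endothelial and macrophage sums of 246 and 250 CPM were within the range of the other libraries and the lowest of the 12, respectively. Single endothelial markers in it differed. Emcn, at 14.0 CPM, was the highest of the 12, and Kdr stood at 24.1 CPM against 26.6 CPM in S1pr1_KO replicate 1. Aqp1 stood at 52.0 against 109 CPM and Tek at 5.24 against 14.3 CPM in the same 2 libraries. The part of milk-secreting or endothelial cells in this Cd36 level was not tested.

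Pparg varied over a narrower range, 17.9-fold over the 12 tumours. It stood at 1.23, 1.97, 0.518 and 1.35 CPM in WT replicates 1 to 4, at 3.10, 1.23, 1.17 and 1.76 CPM in C3_KO, and at 9.27, 6.05, 1.27 and 1.94 CPM in S1pr1_KO. S1pr1_KO replicates 1 and 2 were the highest of the 12 tumours, and the other 10 lay between 0.518 and 3.10 CPM. Gene totals do not part the fat-specific transcript of Pparg from the broader one, which start at different promoters. The antisense gene annotated over Pparg, Gm44079, stood at or under 0.0862 CPM in every library.

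Set against Adipoq, the members fell on a scale from changes of about equal size to far smaller ones. The ratio of CPM to that of Adipoq kept within a 1.71-fold range for Cidec, 2.32-fold for Cfd, 2.34-fold for Plin1, 2.41-fold for Retn and 3.81-fold for Fabp4, although Adipoq itself spanned 174-fold. For Pparg this range was 43.8-fold, for Lep 60.9-fold, for Lipe 64.9-fold and for Cd36 110-fold. The slope of log2 CPM on that of Adipoq over the 12 libraries was 1.05 for Plin1, 0.979 for Retn, 0.968 for Cidec, 0.953 for Cfd and 0.786 for Fabp4, where a slope of 1 means equal fold changes. It was 0.578 for Lep, 0.566 for Cd36, 0.358 for Pparg and 0.190 for Lipe, and without C3_KO replicate 3 the slope of Cd36 was 0.667. Ratio ranges and slopes are descriptions, since all genes of a library share its depth and scaling. A slope gives the size of a change, not how closely genes move together. For Pparg and Lipe, the highest libraries were S1pr1_KO replicates 1 and 2, as for Adipoq. The list thus holds a block of 6 genes, Adipoq, Cfd, Retn, Plin1, Cidec and Fabp4, whose ratios to Adipoq stayed within a 3.81-fold range. The ratios of the other 4 genes ranged more widely. This grouping was made after the values were seen.

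**Figure D2:**
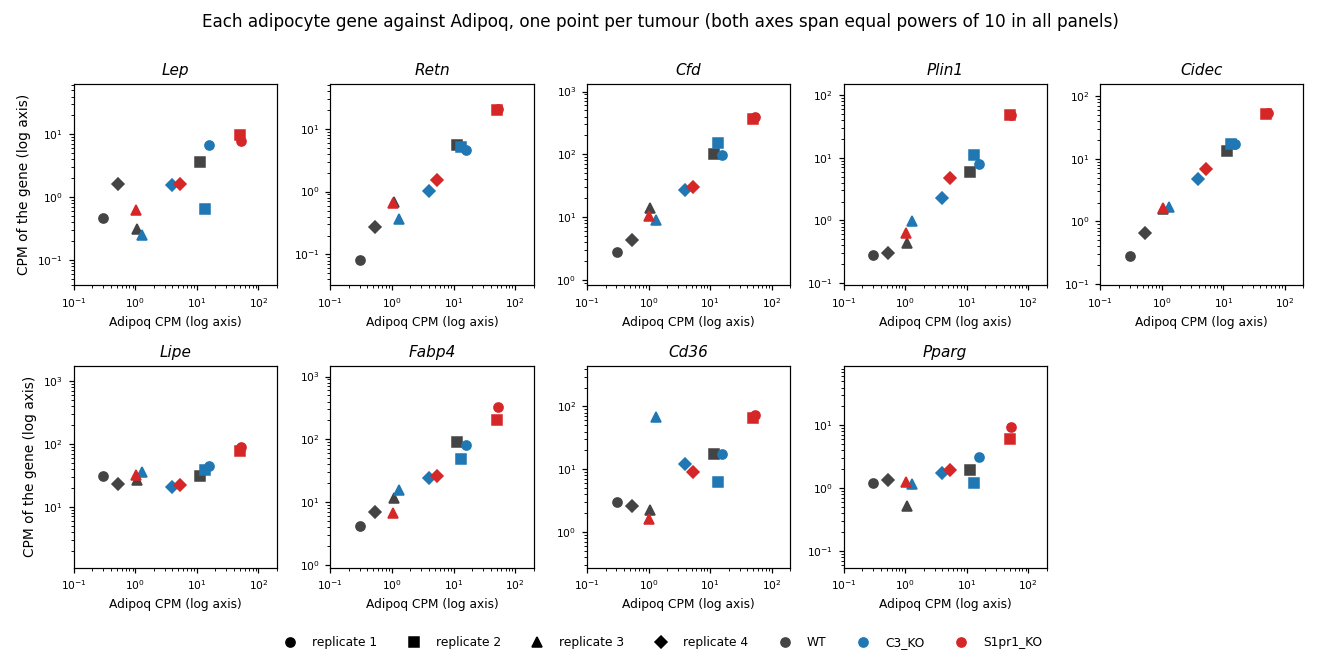
CPM of each of the other 9 genes against Adipoq CPM, 1 point per tumour, on log axes of the same span in every panel. The x and y axes differ slightly in span. Cidec, Cfd, Plin1 and Retn lie along a line of slope near 1, Lipe is nearly flat with a slope of 0.190, and C3_KO replicate 3 stands above the rest for Cd36 at 66.9 CPM.

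The spread between tumours of a strain was wide beside that of other genes. Within strains the SD of log2 CPM was 2.33 for Retn, 2.31 for Plin1, 2.29 for Cfd, 2.28 for Adipoq, 2.17 for Cidec, 1.97 for Fabp4, 1.90 for Cd36 and 1.84 for Lep, and the median over 17203 genes whose log2 CPM averaged 0 or more was 0.451. These 8 genes lay at or above the 99.0th percentile of those genes, Pparg with an SD of 0.981 at the 92.9th and Lipe with 0.636 at the 75.1st. Strain accounted for 16.6% of the variance of log2 CPM for Lep and up to 37.4% for Plin1 and Pparg, beside a median of 18.4% over the same genes.

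S1pr1_KO tumours had the highest mean of every member, and no member passed the test. Plin1 averaged 25.5 ± 26.3 CPM in S1pr1_KO and 1.74 ± 2.79 CPM in WT (SD, n = 4), and its fitted log2 ratio was 3.87 ± 1.43 (SE, edgeR adjusted p = 0.261). Adipoq stood at log2 3.03 ± 1.39 (edgeR adjusted p = 0.325), Cidec at 2.84 ± 1.32, Retn at 2.71 ± 1.39, Cfd at 2.68 ± 1.40, Cd36 at 2.55 ± 1.13, Fabp4 at 2.30 ± 1.20 and Lep at 1.72 ± 1.09 (SE). The smallest p was that of Pparg, at 4.63 ± 3.75 against 1.26 ± 0.594 CPM (SD, n = 4), or log2 1.87 ± 0.62 (SE, edgeR adjusted p = 0.241). Lipe stood at log2 1.00 ± 0.39 (SE, edgeR adjusted p = 0.269). The antisense gene over Lipe, 4732471J01Rik, stood at log2 1.21 ± 0.36 (SE, edgeR adjusted p = 0.226), and reads of this pair cannot be told apart. All 10 fitted changes were above 0, with a median of 2.62, where 51.7% of all genes tested were above 0 with a median of 0.03, and the members are not independent of each other. An unadjusted p under 0.05 was reached by 4 members, Plin1, Pparg, Cd36 and Lipe, where 7.69% of all genes reached it as higher. No member had every S1pr1_KO library above every WT library, as 2.78% of all genes did. Since edgeR called 0% of the 30660 genes, while 4743 had an unadjusted p under 0.05, the members' count of 0 is at the background.

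The call in this comparison depended on the test and on single libraries. With limma-voom and quality weights for libraries, 8 members were called higher, all but Lep and Lipe, with adjusted p-values of 0.0167 for Plin1 to 0.0409 for Fabp4. That fit called 11.1% of all genes higher and 4437 genes lower, and it weighted S1pr1_KO replicate 3 at 0.282 and S1pr1_KO replicate 2 at 2.36. DESeq2 called Pparg alone (DESeq2 adjusted p = 0.0466) and 1.86% of all genes higher. Without S1pr1_KO replicate 3, edgeR called Pparg (adjusted p = 0.0484, in a range of 0.0173 to 0.719 over all alternatives) and 1.55% of all genes higher. Over single libraries the median log2 fold change of the members went from 2.12 without S1pr1_KO replicate 1 and 2.17 without S1pr1_KO replicate 2 to 4.50 without WT replicate 2, and none was called in these 3 fits. Fabp4 stood at 1.53 without S1pr1_KO replicate 1, and Lep at 1.14 without S1pr1_KO replicate 2.

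**Figure D3:**
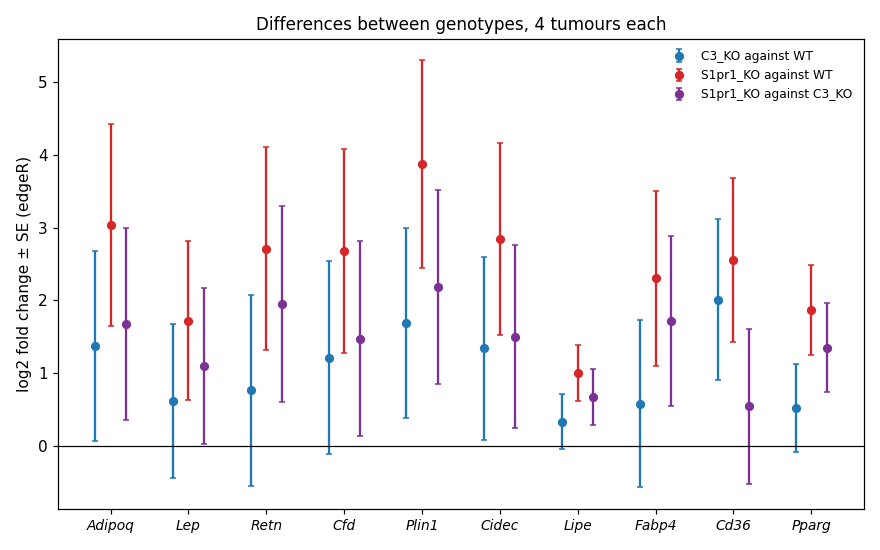
Log2 fold changes from edgeR with their SE (bars) for the 10 genes in the 3 comparisons of strains, 4 tumours each. All points lie above 0, from 0.33 for Lipe in C3_KO against WT to 3.87 for Plin1 in S1pr1_KO against WT, and none passed the test.

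C3_KO tumours lay between the other strains in the mean of every member, and the difference from WT was not detectable for any of them. Cd36 had the largest log2 fold change, 2.01 ± 1.11 (SE), at 25.8 ± 27.8 against 6.40 ± 7.52 CPM (SD, n = 4, edgeR adjusted p = 0.765), and it was 0.91 without C3_KO replicate 3. Plin1 stood at log2 1.69 ± 1.31, Adipoq at 1.37 ± 1.31, Cidec at 1.34 ± 1.26 and Cfd at 1.21 ± 1.33 (SE). Retn stood at 0.76, Lep at 0.62, Fabp4 at 0.58, Pparg at 0.52 and Lipe at 0.33, and edgeR adjusted p-values ran from 0.765 to 0.910. All 10 changes were above 0, as were 54.2% of all genes, and the members' median was 0.99 against 0.05. Over single libraries this median went from 0.65 without C3_KO replicate 1, where Lep turned to -0.86, to 3.15 without WT replicate 2. No member had an unadjusted p under 0.05, which 3.62% of all genes reached as higher, and none parted the strains fully, as 1.32% of all genes did. By adjusted p, edgeR called 0% of genes here, with 1909 at an unadjusted p under 0.05, and neither DESeq2 nor limma-voom called a member.

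Between the knockout strains, S1pr1_KO had the higher mean of all 10 genes and none passed. Fitted log2 ratios were 2.18 ± 1.33 for Plin1, 1.95 ± 1.35 for Retn, 1.72 ± 1.17 for Fabp4, 1.35 ± 0.61 for Pparg and 0.54 ± 1.07 for Cd36 (SE), with an edgeR adjusted p of 1.00 for every member. The Cd36 value was 1.64 without C3_KO replicate 3 and 0.01 without S1pr1_KO replicate 1. Pparg was the 1 member with an unadjusted p under 0.05, which 1.77% of all genes reached as higher. Changes above 0 were found for 10 members and 46.2% of all genes, full separation for 0 members and 0.476% of all genes, and edgeR called 0% of the genes. Both comparisons with WT use the same 4 WT tumours, so their values are not independent.

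Paralogs of the members did not share one pattern. Plin4, a droplet coat protein abundant in fat, stood at 3.26 to 30.9 CPM in WT, 5.26 to 38.7 CPM in C3_KO, and 110, 151, 5.07 and 18.0 CPM in S1pr1_KO replicates 1 to 4, with the same 2 highest tumours as Adipoq. Plin2 and Plin3, which coat droplets in most cell types, stood at 141 to 420 and 96.9 to 294 CPM over all tumours, and Plin5, known from oxidative tissues, at 0.795 to 6.32 CPM. Fabp5, the epidermal-type fatty acid binding protein, stood at 115 to 236 CPM in WT, at 71.2, 148, 338 and 36.6 CPM in C3_KO replicates 1 to 4, and at 39.3, 36.5, 264 and 98.6 CPM in S1pr1_KO. It was thus low in S1pr1_KO replicates 1 and 2, where Fabp4 was highest, and as low in C3_KO replicate 4, where Fabp4 was at 24.0 CPM. Among resistin-like genes, Retnla was at 67.5 CPM in S1pr1_KO replicate 1 and 1.94 to 30.9 CPM elsewhere, and Retnlg, known from neutrophils, at 2.42 CPM in C3_KO replicate 3 and at most 0.230 CPM elsewhere. None of these paralogs was called by edgeR in any comparison, with adjusted p-values of at least 0.278.

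Other genes of fat metabolism were read from lists beside the members, and edgeR called none of them in any comparison, with 0% of all genes called. In S1pr1_KO against WT, 5 of 13 lipid droplet and lipolysis genes had a change above 0, with a median log2 of -0.22, among them the triglyceride lipase-like gene Pnpla3 at 4.09 (edgeR adjusted p = 0.189). Fatty acid uptake and triglyceride synthesis genes were above 0 in 14 of 19, with a median of 0.50, with Dgat2, which makes triglyceride, at 1.41 and the desaturase gene Scd1 at 1.18 (edgeR adjusted p = 0.243 for both). Dgat2 was at 57.3 and 36.5 CPM in S1pr1_KO replicates 1 and 2 and at 5.08 to 17.5 CPM in the other 10 tumours. Adipogenic transcription factors were above 0 in 9 of 12, with a median of 0.23. In this list Klf15 stood at log2 2.05 (edgeR adjusted p = 0.220) and Ebf2 at 1.13 (edgeR adjusted p = 0.344). Klf15 was at 22.9 CPM in S1pr1_KO replicate 1 and at 4.51, 6.29 and 3.04 CPM in replicates 2 to 4. Ebf2 was at 5.21 CPM in S1pr1_KO replicate 1 and at 2.42, 0.743 and 1.23 CPM in replicates 2 to 4. The list of other adipokines was above 0 in 8 of 12, with a median of 0.24 and Itln1 at 0 in 6 libraries, and its members of smallest p were Sfrp5, a secreted Wnt inhibitor, at 1.48, and Nnat, an endoplasmic reticulum protein rather than a hormone, at 2.54. Receptors for adipokines and fat cell hormones were above 0 in 10 of 12, with a median of 0.47. Among them the beta-3 adrenergic receptor gene Adrb3, which mediates lipolysis in fat, stood at log2 3.94 (edgeR adjusted p = 0.234) with 12.6 and 12.4 CPM in S1pr1_KO replicates 1 and 2 and at most 2.38 CPM elsewhere, and Tshr at 1.81. An unadjusted p under 0.05 with a change above 0 was reached by 3, 6, 1, 1 and 1 genes of these 5 lists in this order, beside the 7.69% of all genes given above. In C3_KO against WT the medians of the 5 lists were -0.04, 0.10, 0.05, 0.44 and 0.28. Scd1 stood at log2 1.10 and Dgat2 at 0.10 in that comparison (edgeR adjusted p = 0.765 and 0.966). In S1pr1_KO against C3_KO, Scd1 stood at 0.07 and Dgat2 at 1.31, so Scd1 was about as much higher than WT in both knockout strains.

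Other genes shared the members' pattern closely. Over the 12 libraries, the Pearson r between log2 CPM and the mean z score of the 10 members was highest, of 13658 other named genes averaging 0 or more, for Glb1l2 at 0.978, a beta-galactosidase-like gene. It was 0.975 for Pck1, the enzyme that makes the glycerol backbone precursor in fat, and 0.973 for Plin4. Next came the amino acid transporter gene Slc43a1 at 0.967, Trarg1, which takes part in glucose transporter trafficking in fat, at 0.961, Srpx at 0.958 and gamma-synuclein (Sncg) at 0.957. Carbonic anhydrase 3 (Car3), abundant in fat and muscle, had 0.951, and Cyp2e1 and Slc1a5 0.950 each. The list of 15 ended with Slc28a2, Adcyap1r1, Acap1, Serping1, which encodes the C1 inhibitor of complement, and Bmper, at 0.948 to 0.940. Spearman's rho for the 15 genes lay between 0.909 and 0.972, and r was 0.875 to 0.962 without S1pr1_KO replicates 1 and 2, the libraries farthest from the median score. Pck1 ran from 0.135 CPM in WT replicate 4 to 112 CPM in S1pr1_KO replicate 1, and Car3 from 1.83 CPM in WT replicate 1 to 397 CPM in S1pr1_KO replicate 1. Members themselves had an r with this score of 0.783 for Cd36 to 0.985 for Fabp4, which their own part in the score raises. The libraries share depth and scaling with the score, and no test was made.

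Markers of other cells moved with the adipocyte genes in some tumours and not in others. B cell markers summed to 166 and 92.2 CPM in S1pr1_KO replicates 1 and 2 and to 1.76 to 16.0 CPM in the other 10 tumours, and 8 of 8 had a log2 fold change above 0 in S1pr1_KO against WT, with Blk at 4.14 (edgeR adjusted p = 0.189) and Cd22 at 3.25 (edgeR adjusted p = 0.213). In WT replicate 2, which had the highest Adipoq of its strain, the B cell sum was 3.52 CPM. Blood endothelial markers were above 0 in 10 of 10, with a median of 0.77, Ptprb at 1.24 and Mmrn2 at 0.93, and summed to 119 to 248 CPM in WT, 209 to 284 CPM in C3_KO and 219 to 390 CPM in S1pr1_KO. Preadipocyte and stromal progenitor genes were above 0 in 9 of 10, with a median of 0.63, Pdgfra at 1.16 and Col15a1 at 0.76. They summed to 212 to 290, 249 to 430 and 229 to 541 CPM in WT, C3_KO and S1pr1_KO. In C3_KO against WT, 10 of 10 endothelial and 8 of 10 progenitor genes were also above 0, with medians of 0.58 and 0.44. Medians in S1pr1_KO against C3_KO were 0.23 and 0.29. Macrophage markers in S1pr1_KO against WT were above 0 in 6 of 10 and under 0 in the other 4, with a median of 0.20. Adgre1 at 1.24 and Csf1r at 0.44 were the 2 genes of smallest p in this list. Macrophage sums were 449 to 613, 250 to 617 and 534 to 688 CPM in WT, C3_KO and S1pr1_KO. No gene of these 4 lists was called by edgeR, none was at 0 in any library, and the part of these cells in the adipocyte levels was not tested.

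Skeletal muscle markers summed to 3302 CPM in WT replicate 2, 1764 CPM in C3_KO replicate 2 and 1916 CPM in S1pr1_KO replicate 1, but to 8.04 and 7.20 CPM in C3_KO replicate 1 and S1pr1_KO replicate 2, whose Adipoq levels were also high in their strains. In S1pr1_KO against WT their median log2 fold change was -1.04, with Ckm, muscle creatine kinase, at -1.21 and Actn3 at -1.44 (edgeR adjusted p = 0.800 and 0.764). Luminal epithelial markers summed to 2581 and 2906 CPM in S1pr1_KO replicates 1 and 2 and to 3452 to 7458 CPM in WT, with a median log2 of -0.44, Krt8 at -0.71 and Cldn7 at -0.61 (edgeR adjusted p = 0.439 and 0.447). Ribosomal protein genes summed to 8258 and 5967 CPM in these libraries and to 13460 to 17990 CPM in WT, with a median of -0.85, Rpl11 at -0.95 and Rpl4 at -0.85 (edgeR adjusted p = 0.220 and 0.222), and the 2 libraries held 248.7 and 284.1 M counts against 327.1 to 484.0 M in WT. Low values were not particular to these 2 libraries: S1pr1_KO replicate 4 and C3_KO replicate 4, with 5.29 and 3.93 CPM of Adipoq, held ribosomal sums of 6716 and 6973 CPM, luminal sums of 2910 and 3208 CPM, and 230.4 and 237.1 M counts. Cell cycle genes had a median of -0.52, with Birc5 at -1.60 and Tyms at -0.77 (edgeR adjusted p = 0.204 and 0.228). They summed to 311, 498, 502 and 617 CPM in S1pr1_KO replicates 1 to 4, to 433, 413, 1024 and 373 CPM in C3_KO, and to 622 to 720 CPM in WT. Skin keratinocyte markers summed to 95.6 to 832 CPM in S1pr1_KO and 166 to 397 CPM in WT. Their sum was 1399 CPM in C3_KO replicate 3 and 251 to 258 CPM in the other C3_KO tumours. Medians of the skin, milk and salivary lists were 0.32, -0.46 and 5.89 in S1pr1_KO against WT. In C3_KO against WT they were 2.72, 6.63 and -1.07, where C3_KO replicate 3 carried the milk transcripts and the highest skin sum. Krt10 stood at 178 CPM in C3_KO replicate 3 and at 8.32, 7.31 and 38.3 CPM in replicates 1, 2 and 4 of that strain. The genes of smallest p in these lists were Krt10 and Lor at log2 3.29 and 2.14 and the caseins Csn1s2a and Csn1s2b at 8.66 and 6.12 in C3_KO against WT, and the amylase gene Amy1 and Dcpp2 at 8.87 and 4.32 in S1pr1_KO against WT, and edgeR called none. Listed at 0 were the salivary genes Prb1 in 2 libraries and Muc19 in 1. A further fit left out C3_KO replicate 3 and S1pr1_KO replicates 1 and 4 together. The members' median log2 fold change was then 2.55 in S1pr1_KO against WT and 1.07 in C3_KO against WT, and none was called. Only replicates 2 and 3 of S1pr1_KO remained in that fit, with Plin1 at 48.4 and 0.638 CPM. The value of 2.55 thus rested largely on replicate 2. With so few tumours, the fit cannot show whether the difference holds without the libraries rich in salivary transcripts. The part of depth and of these other transcripts in the result was not tested.

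**Figure D4:**
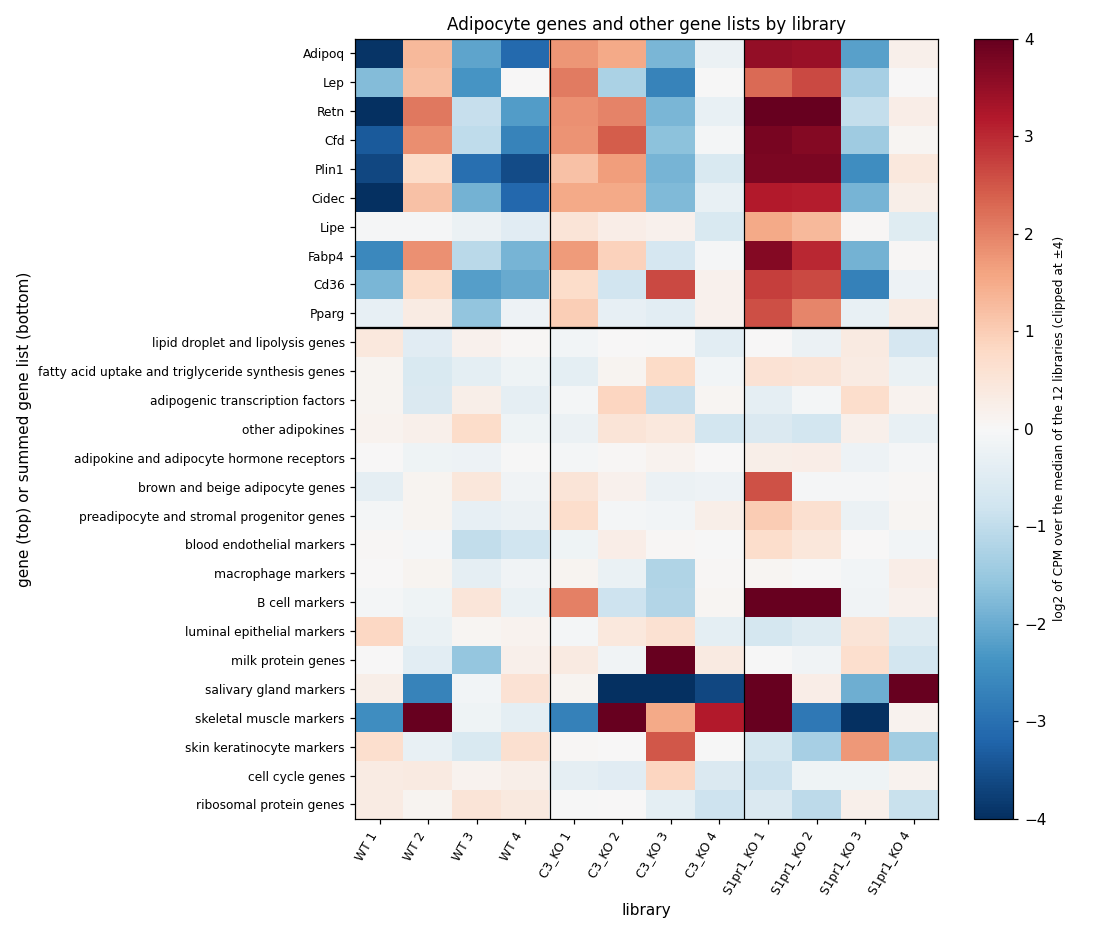
Log2 of the CPM of each adipocyte gene (top) and of the summed CPM of 17 other gene lists (bottom) over the median of the 12 libraries, clipped at 4 in either direction. S1pr1_KO replicates 1 and 2 are above the median for all 10 genes and for the B cell list, whose sums are 166 and 92.2 CPM, and muscle markers are high in WT replicate 2 at 3302 CPM.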

How the data were processed

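Total RNA of 12 tumours, 4 for each of 3 genotype labels, was sequenced. RNAlater storage and QIAzol extraction are per the labels' protocols. The authors deposited raw counts per gene, whole numbers that sum to 230.4 to 484.0 M per library, and a table of FPKM. All 682320 deposited FPKM values equalled the count divided by gene length and library total, within a relative tolerance of 0.001, so they add no measurement. Among counts from 1 to 50, 60.2 to 64.4% were even, and how reads or pairs were counted is not known. Per the submitters' processing notes, StringTie and GRCm39 (mm39) were named. Which program aligned or counted the reads, and whether counting used strand, is not given in the sources used here.

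Counts were tested with edgeR 4.0.16 in R 4.3.3, by a robust quasi-likelihood F-test with a mean per genotype over all 12 libraries and 9 residual degrees of freedom, after edgeR's filter on low counts and TMM scaling. Benjamini-Hochberg adjustment ran over 30660 genes, with calls at an adjusted p under 0.05. Common biological variation (BCV) was 0.564. The SE is the size of the log2 fold change over the root of F. Scores used log2 CPM with a prior count of 2. Alternatives used DESeq2 1.42.0, limma 3.58.1, other scalings and filters, log2(FPKM + 1), log2(FPKM + 0.1), and fits without single libraries. The fits were tested on simulated data. Replicates were numbered in accession order, so a number pairs nothing. The members and the 17 other lists with 174 genes were chosen with earlier results of these data known. Genes named were all members, fixed paralogs, the 2 genes of smallest p of each list, and the 15 genes most like the members, predicted genes left out. Csn2, Dio2, Cox8b, Cox7a1, Ppargc1a and Prdm16 were named after their values were seen. Levels are mean ± SD, and counting error is small beside that spread.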

Additional observations from a re-analysis of the deposited data

Results flagged for a closer look

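In 7 of the 10 genes, WT replicate 2 stood apart from the other 3 WT tumours, by a gap to the nearest tumour above Dixon's 95% critical value as a part of the WT range. These levels were Adipoq at 11.4 CPM, Retn at 5.52 CPM, Plin1 at 5.93 CPM, Fabp4 at 89.7 CPM, Cidec at 13.3 CPM, Cd36 at 17.7 CPM and Cfd at 103 CPM, with gaps of 0.889 to 0.972 of the range. The remaining WT tumours lay at 0.303 to 1.06 CPM for Adipoq and 2.76 to 13.9 CPM for Cfd. The gaps were taken on CPM, and on log2 CPM the limit was passed for Plin1 and Cd36 alone. Of 30 gene and strain groups examined, 7 met this limit on CPM. Its rate of about 1 in 20 by chance is for normally spread values, which CPM of these genes need not be. The 7 share a library and genes that vary together, so they amount to 1 observation. The same library held 3302 CPM of skeletal muscle transcripts, and the part of the tissue taken with the tumour was not tested.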

How the results depend on the processing

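Over 22 alternatives, the log2 fold changes of the 10 genes in the 3 comparisons kept their direction in every case but 1: Lep in C3_KO against WT lay at -0.86 to 1.54 when single libraries were left out, with -0.86 without C3_KO replicate 1. The number of members called was 0 in C3_KO against WT and in S1pr1_KO against C3_KO under every alternative. In S1pr1_KO against WT it was 8 with limma-voom and quality weights, 1 with DESeq2, and 0 to 1 when single libraries were left out. The cause was not tested. Counts of genes called over the whole table differed as well. In S1pr1_KO against WT they were 7828 with limma-voom, 901 with DESeq2, 33 and 43 on log2(FPKM + 1) and log2(FPKM + 0.1), 68 with only the 2 genotypes compared, 27 with total counts only, 10 without a filter, 23 with the CPM filter and 0 to 1330 when single libraries were left out, against 0 here. In C3_KO against WT they were 84 with DESeq2, 5 with limma-voom, 1 on log2(FPKM + 1) and 0 to 8 over single libraries, and between the knockouts 121 with DESeq2 and 0 to 3 over single libraries. Without TMM factors the median of all genes moved to 0.20 in S1pr1_KO against WT, and that of the members was 2.75. The members' median was 2.02 in C3_KO against WT with limma-voom, and 1.70 in S1pr1_KO against WT on log2(FPKM + 1). No paired analysis was possible because the labels number the 12 tumours separately and pair none. The gap that set WT replicate 2 apart was also computed on log2 CPM, a choice made after seeing the data: it stayed above the limit for Plin1 and Cd36, at 0.856 and 0.870 of the range, and fell under it for the other 5 genes, at 0.497 to 0.659.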

Other observations

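Several genes of brown and beige fat, which burns lipid to make heat, had their highest level in S1pr1_KO replicate 1, namely Ucp1, Cidea, Dio2, Cox8b, Cox7a1 and Ppargc1a, while Prdm16 and Elovl3 did not. Prdm16, a transcriptional regulator of brown fat, stood at 2.42 CPM there and was highest in C3_KO replicate 1 at 15.5 CPM. Ucp1, the uncoupling protein that marks these cells, was at 48.3 CPM in S1pr1_KO replicate 1 and between 0.0159 and 1.16 CPM elsewhere, with 0.127 CPM in S1pr1_KO replicate 2, whose Adipoq was also high. Cidea stood at 30.0 CPM and Dio2, which activates thyroid hormone, at 12.7 CPM in S1pr1_KO replicate 1, and Cidea was next highest in C3_KO replicate 3 at 11.2 CPM. The 8 genes of that list summed to 133 CPM in S1pr1_KO replicate 1 and to 17.8 to 32.7 CPM in the other tumours, and 7 of 8 had a log2 fold change above 0 in S1pr1_KO against WT, with a median of 0.97 and no gene called by edgeR. Of the genes of smallest p in the list, Ucp1 stood at log2 7.45 (edgeR adjusted p = 0.234) and Elovl3, a fatty acid elongase that was highest in C3_KO replicate 3 at 1.17 CPM, with 0.928 CPM in S1pr1_KO replicate 1 and 0 in WT replicate 3, at 3.38 (edgeR adjusted p = 0.308).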
